A study of Mus musculus with 6 samples.

Results

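The unfolded protein response was examined through 10 genes, the transcription factor Xbp1 and 9 genes of chaperones and folding or disposal factors of the endoplasmic reticulum (ER), in 4T1-LM3 mouse mammary carcinoma cells. The genes were Xbp1, Hspa5, Hsp90b1, Hyou1, Dnajb9, Dnajc3, Sdf2l1, Herpud1, Pdia4 and Creld2, taken by gene symbol from a table of 16426 genes. All 10 were found, and all 10 were among the 10804 genes that passed the filter on low values (at least 1 FPKM in at least 3 of 6 libraries). FPKM is a fragment count corrected for how long the transcript is and for how many fragments of that library mapped, so levels can be compared between genes. A total of 3 samples had been cultured in conditioned medium (CM) of Tdo2high MFs, the matrix fibroblasts rich in tryptophan 2,3-dioxygenase, and 3 samples in a control CM. The comparison asked how the fibroblast medium altered the carcinoma cells. All samples were of the same line, with no genetic change named; the source of the control medium, the time in medium and the number of fibroblast donors are not given in the labels. Whether the replicates came from separate cultures is not stated, so the p-values reflect the spread among these libraries alone, and that spread may be technical.

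Proteins that enter the secretory pathway fold in the ER, where Hspa5 (BiP, GRP78) binds unfolded chains. When unfolded chains build up, the sensors IRE1 (Ern1), ATF6 and PERK (Eif2ak3) are released or activated. IRE1 cuts Xbp1 mRNA, which the ligase Rtcb joins into the form that encodes the active factor, ATF6 is cut into a transcription factor, and PERK slows translation and raises ATF4. XBP1 and ATF6 drive chaperone and ER-associated degradation genes through ER stress response elements, short DNA motifs in their promoters. Gene-level FPKM sums the cut and uncut forms of Xbp1 mRNA, so the share that was spliced was not measured.

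Promoter windows from 250 bases before to 50 bases after the start of each gene (RefSeq, GRCm38.p6) matched 9 of the 10 genes, all but Hyou1. The ER stress response element (ERSE, which is CCAAT, then any 9 bases, then CCACG, on either strand) was present in 4 of those 9 windows. Among all 32851 windows of the same length it was in 0.119%, and among the 8752 tested genes with a window 0.171% held it. The variant ERSE-II (ATTGG, any 1 base, then CCACG, on either strand) was in 1 of 9, against 0.0365% of all windows and 0.103% of those tested genes. The matches, in 5 of the 9 windows, are printed because XBP1 and ATF6 are known to act through such elements, read 5′ to 3′ on the strand that matches, with the fixed letters in capitals.
Hspa5: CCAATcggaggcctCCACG
Hsp90b1, upstream match: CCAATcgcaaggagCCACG
Hsp90b1, downstream match: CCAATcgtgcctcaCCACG
Dnajc3: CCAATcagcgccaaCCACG
Creld2: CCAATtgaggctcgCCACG
Herpud1, ERSE-II: ATTGGgCCACG

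The Hspa5 match began 65 bases before the start site, the Dnajc3 match 105, the Creld2 match 126 and the Herpud1 match 52, and the Hsp90b1 matches 212 and 107 bases before it. The upstream Hsp90b1 match, and those of Hspa5, Dnajc3 and Herpud1, ran in the direction of the gene, and the other Hsp90b1 match and that of Creld2 ran against it. The parts of the element are common on their own: CCAAT was in 37.4% and CCACG in 32.8% of all windows, and in 8 of 9 windows here each. Of the tested genes with a window, 44.0% held CCAAT and 53.1% held CCACG. ERSE contains both, and ERSE-II contains CCACG and CCAAT read on the other strand. The UPRE core TGACGTGG, bound by spliced XBP1, was in 0 of 9 windows and in 0.676% of all, either strand, and in 1.03% of tested genes with a window. For every motif only exact matches to its fixed letters were searched, so sites that differ by a base were not counted. The windows of Hspa5 and Xbp1 are given in full to set a chaperone promoter with an ERSE beside that of the transcription factor, which holds none of these 5 motifs. The Hspa5 window is chr2:34771840-34772139 and the Xbp1 window chr11:5520391-5520690, both on the plus strand, with an ERSE in capitals.
Hspa5 promoter: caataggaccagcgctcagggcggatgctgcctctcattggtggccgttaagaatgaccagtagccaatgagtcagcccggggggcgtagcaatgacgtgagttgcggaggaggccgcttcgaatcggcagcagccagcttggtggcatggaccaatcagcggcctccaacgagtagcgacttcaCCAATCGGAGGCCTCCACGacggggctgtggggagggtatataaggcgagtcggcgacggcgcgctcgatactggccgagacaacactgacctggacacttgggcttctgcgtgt
Xbp1 promoter: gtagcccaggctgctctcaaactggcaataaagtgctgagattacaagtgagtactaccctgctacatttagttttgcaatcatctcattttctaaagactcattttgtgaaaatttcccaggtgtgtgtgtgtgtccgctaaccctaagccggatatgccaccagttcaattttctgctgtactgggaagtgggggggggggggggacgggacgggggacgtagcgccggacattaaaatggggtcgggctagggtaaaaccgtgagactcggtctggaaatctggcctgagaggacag

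The genes stood at very different levels. Hspa5 and Hsp90b1 together held 79.4% to 80.1% of the FPKM of all 10 genes in Tdo2high CM libraries and 79.8% to 80.0% in control CM libraries. By mean FPKM with control CM the order was Hspa5, Hsp90b1, Pdia4, Xbp1, Hyou1, Sdf2l1, Dnajc3, Dnajb9, Creld2 and Herpud1, and by mean level over all libraries Hspa5 ranked 66 and Herpud1 5387 among the tested genes. Dnajc3 and Dnajb9 were the only neighbours in this order whose control CM libraries overlapped, so their order is within the spread. With Tdo2high CM, Xbp1 stood above Pdia4 in every library, and with control CM it stood below Pdia4 in every library. The 10 genes lie on 10 chromosomes. Hspa5 overlaps the annotated Rabepk gene, and Dnajc3 and Pdia4 overlap a pseudogene and a microRNA gene; the strand setting of the counting is not stated, so reads shared there cannot be told apart.

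**Figure D1:**
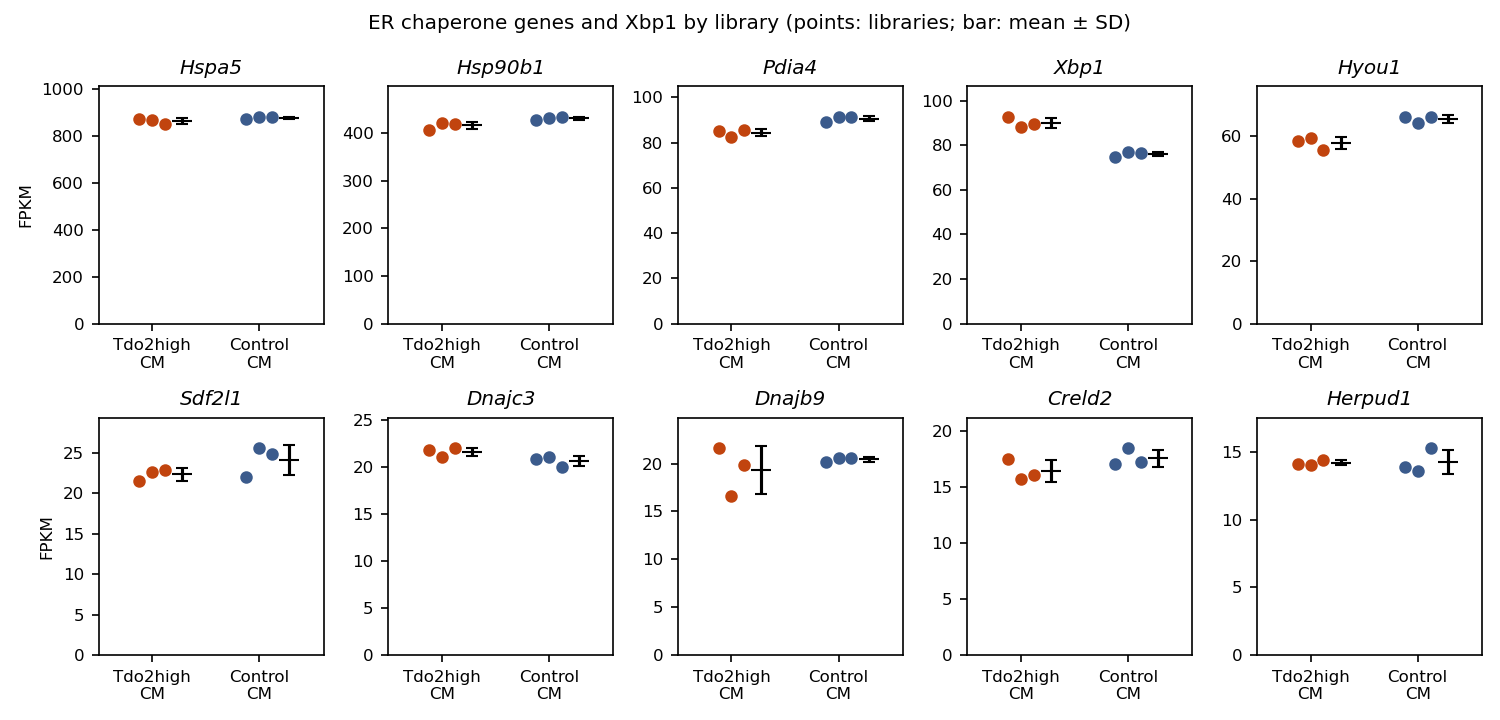
FPKM of each gene in 3 libraries with Tdo2high CM (orange) and 3 with control CM (blue), with mean ± SD as black bars and axes from 0. Xbp1 is separated upward and Hyou1 downward, and the Dnajb9 values spread from 16.6 to 21.6 FPKM with Tdo2high CM.

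With Tdo2high CM, Xbp1 mRNA was higher and the chaperone co-factor Hyou1 was lower than with control CM, and the other 8 genes did not pass the test. The changes were small, at 18.3% up for the mean of Xbp1 and -11.8% for that of Hyou1. The 2 most abundant chaperones, Hspa5 and Hsp90b1, differed by -1.66% and -3.52% in their means, which did not pass. Of 10804 genes tested by limma, 7.41% passed in either direction at adjusted p under 0.05, 3.35% higher and 4.06% lower, against 1 higher and 1 lower of these 10. The groups did not overlap for 2 genes above and 3 below, where 29.2% of all tested genes showed no overlap. The median log2 fold change of the 10 genes was -0.07, and that of all tested genes -0.01. In bulk RNA, fewer cells of a type and less RNA per cell cannot be told apart.

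Xbp1 encodes the transcription factor of the IRE1 branch. It had 92.7, 88.0 and 89.5 FPKM with Tdo2high CM, against 74.9, 76.8 and 76.7 FPKM with control CM. Every Tdo2high CM library lay above every control CM library. The log2 fold change was 0.24 ± 0.03 (SE; 95% interval 0.17 to 0.30; adjusted p = 0.00128 by limma, higher in 3 of 3 samples). All log2 fold changes given here compare log2(FPKM + 1) values and therefore understate changes in genes of low level. Xbp1 lies on chromosome 11 from 5520641 to 5525993 (GRCm38).

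Hspa5, the ER member of the Hsp70 family, had 872, 868 and 849.9 FPKM with Tdo2high CM, against 871, 881 and 882 FPKM with control CM. The groups overlapped, since the highest Tdo2high CM library exceeded the lowest control CM library. The log2 fold change was -0.02 (95% interval -0.09 to 0.04; adjusted p = 0.662 by limma), so that a mean fold between 0.940 and 1.03 was within the interval. Hsp90b1 (GRP94), the ER member of the Hsp90 family, had 408, 422 and 420.4 FPKM with Tdo2high CM, against 428, 433 and 434 FPKM with control CM. Its groups did not overlap, but the log2 fold change of -0.05 (95% interval -0.11 to 0.01) did not pass, at adjusted p = 0.295 by limma.

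Hyou1 (GRP170) is an Hsp70-related chaperone that exchanges nucleotide on Hspa5. It had 58.3, 59.3 and 55.5 FPKM with Tdo2high CM, against 66.1, 64.1 and 66.1 FPKM with control CM. All Tdo2high CM libraries were below all control CM libraries. The log2 fold change was -0.18 ± 0.03 (SE; 95% interval -0.25 to -0.11; adjusted p = 0.0104 by limma, lower in 3 of 3 samples). Hyou1 lies on chromosome 9 from 44379490 to 44392369. Pdia4 (ERp72), a disulfide isomerase, had 85.3, 82.6 and 85.4 FPKM with Tdo2high CM, against 89.3, 91.1 and 91.3 FPKM with control CM. Its groups did not overlap either. The log2 fold change of -0.10 (95% interval -0.16 to -0.04) had adjusted p = 0.0556 by limma, and over the 16 alternative settings the adjusted p ran from 0.0344 to 0.167, passing in 3.

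The DnaJ co-chaperones bring clients to Hspa5 and start its ATPase cycle. Dnajc3 (p58IPK) had 21.8, 21.1 and 22.0 FPKM with Tdo2high CM, against 20.9, 21.0 and 20.0 FPKM with control CM. The groups were separated only narrowly, and the log2 fold change of 0.06 (95% interval -0.02 to 0.14) did not pass, at adjusted p = 0.318 by limma. Dnajb9 (ERdj4), a co-chaperone that also holds IRE1 in check, had 21.6, 16.6 and 19.8 FPKM with Tdo2high CM, against 20.2, 20.6 and 20.6 FPKM with control CM. Its libraries with Tdo2high CM were the most scattered of the 10 genes, with a coefficient of variation of 13.1% against 1.22% with control CM. The log2 fold change of -0.09 had a wide 95% interval, -0.25 to 0.08, and without Tdo2high CM replicate 2 it was 0.01. Adjusted p was 0.527 by limma with all libraries.

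Sdf2l1 works with an ER DnaJ protein in keeping clients soluble. It had 21.4, 22.6 and 22.8 FPKM with Tdo2high CM, against 22.0, 25.5 and 24.8 FPKM with control CM, and the groups overlapped. Creld2, an ER protein induced by folding stress, had 17.6, 15.7 and 16.1 FPKM with Tdo2high CM, against 17.1, 18.5 and 17.3 FPKM with control CM, again with overlap. Herpud1, a membrane scaffold of the degradation complex, had 14.1, 14.1 and 14.4 FPKM with Tdo2high CM, against 13.9, 13.7 and 15.3 FPKM with control CM. Its Tdo2high CM libraries all lay within the range of the control CM libraries. The log2 fold changes were -0.11 for Sdf2l1 (95% interval -0.22 to 0.01), -0.09 for Creld2 (-0.20 to 0.02) and -0.01 for Herpud1 (-0.11 to 0.10). None of the 3 passed, at adjusted p = 0.254, 0.286 and 0.950 by limma. The sign of the Herpud1 difference turned to 0.01 under the median of ratios and under quantile normalization.

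**Figure D2:**
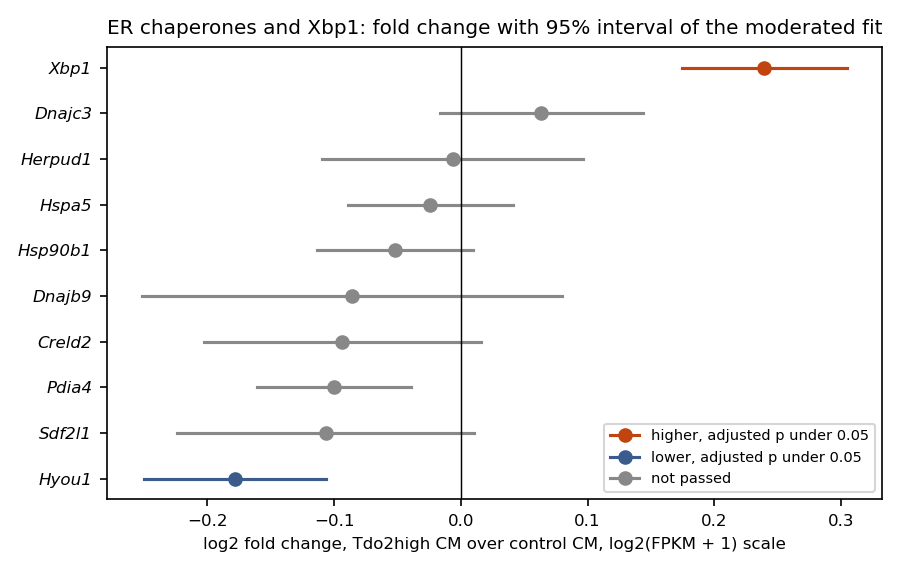
Log2 fold change (points) of the 10 genes with the 95% interval of the moderated fit (lines), on the log2(FPKM + 1) scale, positive where Tdo2high CM is higher. Xbp1 at 0.24 and Hyou1 at -0.18 passed the test, and the interval of Pdia4 also leaves out 0 although its adjusted p did not pass.

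The genes were also compared from library to library. Among the 3 Tdo2high CM libraries, replicate 2 gave the lowest value for 6 of the 10 genes and replicates 1 and 3 for 2 each. Among the 3 control CM libraries, replicate 1 gave the lowest value for 7 genes and replicate 3 the highest for 6. Relative to their control CM means, the 9 genes other than Xbp1 had a median deviation of -0.02, -0.09 and -0.05 on the log2(FPKM + 1) scale in the Tdo2high CM libraries, against -0.02, 0.01 and 0.01 in the control CM libraries. Of these 9 genes, 7, 8 and 7 lay below their control CM mean in the Tdo2high CM libraries, against 7, 2 and 2 in the control CM libraries. The control CM libraries set those means, so their own deviations centre on 0 by construction. Leaving out Xbp1, the gene that rose, also lowers the median and raises the share below. The FPKM of all 10 genes summed to between 1596 and 1613 with Tdo2high CM and between 1624 and 1648 with control CM, or 0.359% to 0.363% and 0.368% to 0.376% of each library's total.

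Ratios within a library do not depend on how libraries were scaled. They were chosen with the values known and are given as a description; 3 samples against 3 allow no exact two-sided permutation p below 0.1. Xbp1 relative to Hspa5 was 0.106, 0.101 and 0.105 with Tdo2high CM, against 0.0860, 0.0873 and 0.0870 with control CM. Xbp1 relative to Hyou1 was 1.59, 1.48 and 1.61 with Tdo2high CM, against 1.13, 1.20 and 1.16 with control CM. The means of these ratios differed by 20.3% and 34.1%, and neither pair of groups overlapped. Hyou1 relative to Hspa5 averaged 0.0668 ± 0.00149 with Tdo2high CM and 0.0745 ± 0.00158 with control CM (SD, n = 3 each), a difference of -10.3%.

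**Figure D3:**
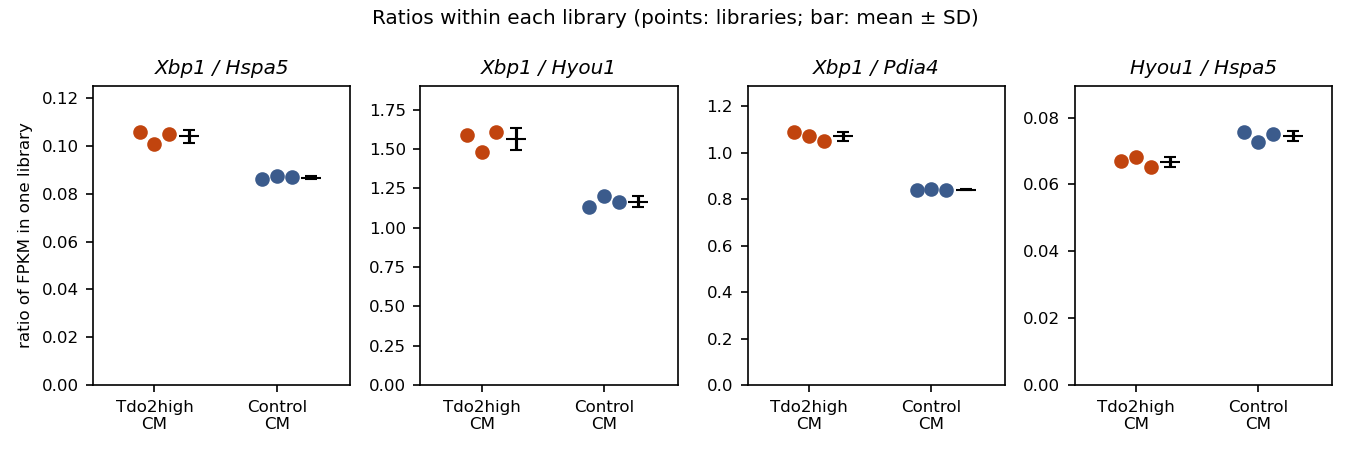
Ratios of FPKM between pairs of genes in each library, with Tdo2high CM (orange) left of control CM (blue), mean ± SD as black bars and axes from 0. The Xbp1 to Hyou1 ratio lies between 1.48 and 1.61 with Tdo2high CM and between 1.13 and 1.20 with control CM.

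The sensors were measured as part of a list of 20 sensors and regulators, of which 17 were tested. Of the tested genes of this list, 2 fell (11.8%, against 4.06% of all tested genes) and none rose (3.35% of all). This list and those that follow were chosen with earlier results of these data known, so their shares are a description. Ern1, the gene of IRE1, had 30.2, 31.0 and 31.8 FPKM with Tdo2high CM, against 36.4, 33.3 and 35.4 FPKM with control CM, with no overlap. Its log2 fold change was -0.17 ± 0.04 (SE; adjusted p = 0.0264 by limma), lower in 3 of 3 samples. The call of Ern1 ended with no filter on low values, with no intensity trend, and without control CM replicate 1 or 3 or Tdo2high CM replicate 1 or 2 (adjusted p = 0.0744 and 0.0676, then 0.0887, 0.0781, 0.0833 and 0.0771). Nfya, a subunit of the factor that binds CCAAT, was lower by the same measure (-0.17; adjusted p = 0.0245 by limma), a call that ended without any 1 library (adjusted p 0.0520 to 0.0874). Atf6 averaged 19.6 ± 0.288 FPKM with Tdo2high CM and 20.0 ± 0.720 with control CM (SD, n = 3 each), and Eif2ak3, the gene of PERK, 6.12 ± 0.365 and 6.26 ± 0.220 FPKM. Neither passed, with log2 fold changes of -0.03 each (adjusted p = 0.658 and 0.794 by limma). Rtcb, whose product ligates Xbp1 mRNA, differed by 0.06 on the log2 scale without passing (adjusted p = 0.339).

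None of 30 tested genes among 34 other ER folding factors passed by limma, and 10 had an unadjusted p under 0.05, where 23.7% of all tested genes did. Of the 30, 22 had log2 fold changes below 0 and 8 above, and the groups did not overlap for 11 lower genes and 1 higher gene, where 17.5% of all tested genes did not overlap on the lower side and 11.6% on the higher. The median log2 fold change was -0.06, against -0.01 over all tested genes, of which 6095 of 10804 were below 0. The lectin chaperone Calr averaged 297 ± 6.29 FPKM with Tdo2high CM and 309 ± 10.5 with control CM (SD, n = 3 each), and its membrane partner Canx 235 ± 3.60 and 244 ± 6.06 FPKM. The disulfide isomerase P4hb averaged 303 ± 1.93 FPKM with Tdo2high CM and 324 ± 7.02 with control CM, with adjusted p = 0.0628 by limma. P4hb passed on the TPM scale and under quantile normalization, at adjusted p = 0.0363 and 0.0257.

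None of 28 tested ER-associated degradation genes passed by limma (16 above 0 and 12 below, with no overlap for 6 higher and 6 lower genes). None of 26 genes of ER exit and retrieval did (8 above 0 and 18 below, with no overlap for 1 higher and 7 lower genes). In each list, 8 genes had an unadjusted p under 0.05 by limma, where 23.7% of all tested genes did. Their median log2 fold changes were 0.01 and -0.03. Of 32 genes of protein import into the ER and N-glycosylation, 3 fell (9.38%, against 4.06% of all tested genes) and none rose (3.35% of all). Of the 32, 15 were above 0 and 17 below, with a median log2 fold change of -0.01, as over all tested genes. The groups did not overlap for 7 higher and 5 lower genes. For each list in this paragraph, the shares of all tested genes without overlap were 11.6% on the higher side and 17.5% on the lower. Ddost and Rpn2, subunits of the oligosaccharyltransferase, averaged 162 ± 0.692 and 144 ± 1.61 FPKM with Tdo2high CM, against 181 ± 5.53 and 161 ± 3.46 FPKM with control CM (SD, n = 3 each). Their log2 fold changes were -0.16 each, at adjusted p = 0.00930 and 0.00928 by limma. Srprb, a subunit of the signal recognition particle receptor, also fell (-0.19; adjusted p = 0.0371), a call lost in 10 of 16 other settings, for example at adjusted p = 0.0503 under the median of ratios.

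The PERK branch was represented by 12 genes, of which 4 fell (33.3%, against 4.06% of all tested genes) and none rose (3.35% of all). The median log2 fold change was -0.12. Because the list was chosen with earlier results of these data known, its share is no test of the branch. Ddit3 (CHOP), a transcription factor of prolonged stress, had 7.92, 6.56 and 5.68 FPKM with Tdo2high CM, against 11.1, 10.9 and 11.4 FPKM with control CM, and Trib3, a pseudokinase downstream of ATF4, averaged 22.8 ± 0.737 and 28.2 ± 0.463 FPKM (SD, n = 3 each). Bbc3, a pro-apoptotic BCL2 family gene, and Nupr1, a stress-induced chromatin protein gene, were the other genes that fell, with log2 fold changes of -0.38 and -0.24 (adjusted p = 0.00236 and 0.00700 by limma). The log2 fold changes of Ddit3 and Trib3 were -0.66 and -0.30 (adjusted p = 0.00195 and 0.00105 by limma). Ppp1r15a, which restores translation after PERK, had 0.11 and Atf4 -0.08, and neither passed (adjusted p = 0.306 and 0.10 by limma). The groups did not overlap for 8 lower genes, Atf4 among them, and for 0 higher genes. Among all tested genes, 17.5% did not overlap on the lower side and 11.6% on the higher. These genes also respond to amino acid supply and to p53, so the list is not specific to the ER.

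**Figure D4:**
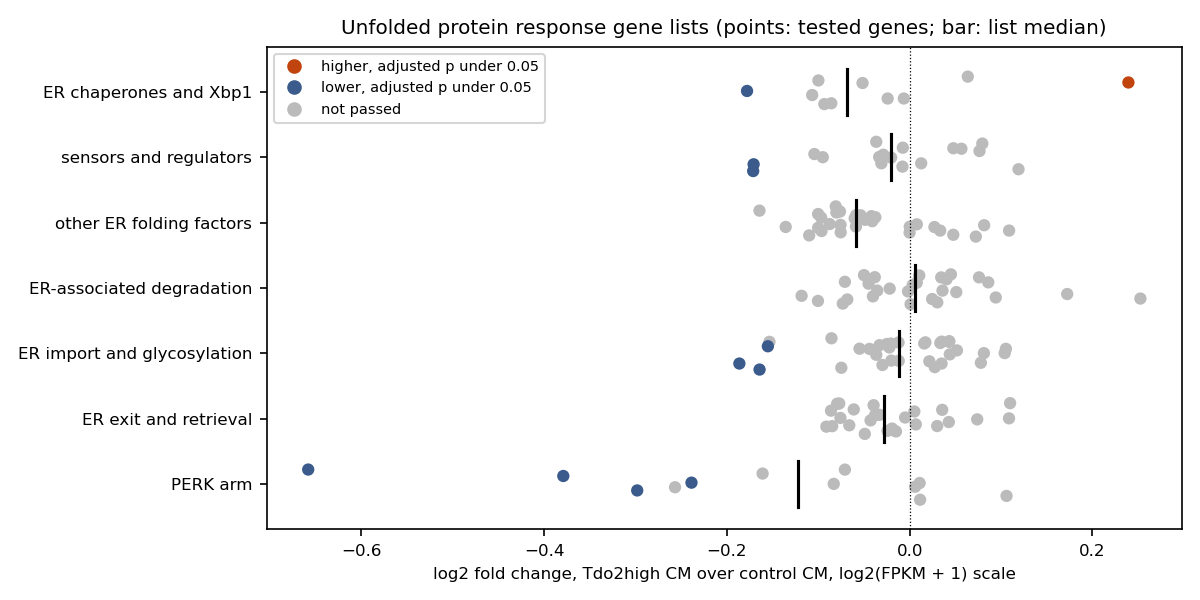
Log2 fold change of the tested genes (points) in the 10 genes and in lists of the unfolded protein response, with the median of each list as a black bar, on the log2(FPKM + 1) scale. Blue points fell and the orange point, Xbp1, rose, and the PERK list reaches -0.66 at Ddit3.

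IRE1 also cuts other mRNAs, a decay described in mouse and fly cells. Of 6 such substrates 1 fell (16.7%, against 4.06% of all tested genes) and none rose (3.35% of all). Of the 6, 4 were above 0 and 2 below, with a median log2 fold change of 0.02. Bloc1s1, the best known of them, averaged 55.3 FPKM with Tdo2high CM and 52.8 with control CM and did not pass (adjusted p = 0.391 by limma). The gene that fell was Sparc, a matrix glycoprotein gene, with 389, 394 and 387 FPKM with Tdo2high CM, against 443, 445 and 438 FPKM with control CM (log2 fold change -0.18; adjusted p = 0.00371). Over the 7 lists outside the 10 genes, 151 genes were tested, 10 fell and none rose. The share that fell was 6.62%, against 4.06% of all tested genes, and 0 of 151 rose, against 3.35% of all; in either direction the shares were 6.62% and 7.41%.

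Genes with an ERSE or ERSE-II in the promoter window were then set beside the chaperones, a grouping made after the values were seen. Among 8752 tested genes with a window, 15 held an ERSE and 9 an ERSE-II, and 5 of these 24 are among the 10 genes described here. The windows of Creld2 and its neighbour Alg12 overlap and hold the same element. None of the 24 rose and 1 fell, where 3.35% of all tested genes rose and 4.06% fell. Of the 24, 18 were below 0 and 6 above, with a median log2 fold change of -0.05 and a range of -0.25 to 0.11. Of all 10804 tested genes, 6095 were below 0 and 4709 above, with a median of -0.01. The gene that fell was Krtcap2, a subunit of the oligosaccharyltransferase, with a mean of 54.7 FPKM with Tdo2high CM and 65.5 with control CM (adjusted p = 0.0191 by limma). Calr, Canx, Pdia6 and the degradation ligase gene Syvn1 were among the ERSE genes, at -0.06, -0.05, -0.06 and -0.07. Hspa5, Hsp90b1, Dnajc3, Creld2 and Herpud1, whose elements are printed above, did not pass, and Xbp1, which passed, held no such motif in this window. Hyou1, which also passed, had no window and was not searched.

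The genes whose pattern over the 6 libraries was most like that of Xbp1 were Zfp654, a zinc finger gene, Cyb5b, a cytochrome b5 of the mitochondrial outer membrane, and Gsr, glutathione reductase. The measure was the root mean square difference of the deviations from each gene's mean, 0.0252, 0.0256 and 0.0266 on the log2(FPKM + 1) scale. Gsr averaged 30.3 ± 0.440 FPKM with Tdo2high CM and 24.8 ± 0.739 with control CM, and Cyb5b 102 ± 1.66 and 86.0 ± 1.73 FPKM (SD, n = 3 each). Most like Hspa5 were Psma1, Plpbp and Tbl1xr1, at 0.00456, 0.00575 and 0.00608. All these genes were picked by likeness over the same libraries. That they differed between the media much as Xbp1 or Hspa5 did follows from that choice.

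Total FPKM per library ran from 438603 to 447415. Across genes, the log2(FPKM + 1) values of pairs of libraries had a Pearson's r of 0.9972 to 0.9977 within a group. Between groups it was 0.9956 to 0.9961. Differences in level between genes hold such an r near its maximum. Every pair within a group still lay above every pair between groups, so no library was closer to the other group. Read depth is unknown. Of the epithelial markers, the keratins Krt8 and Krt18 averaged 277 and 378 FPKM with Tdo2high CM, against 272 and 356 FPKM with control CM, while Epcam and Cdh1 were near 0 with both media, so the carcinoma cells lacked these defining markers. Fibroblast markers summed to 80.7 to 82.7 FPKM with Tdo2high CM and 80.5 to 82.3 with control CM, with the defining collagen genes Col1a1 and Col1a2 near 0; of 3 tested, Pdgfra rose (0.17) and Dcn fell (-0.48). Of the markers measured, those of plasma cells other than Sdc1, and of myeloid cells other than Cd68, stayed under 1 FPKM in every library. Jchain and Tnfrsf17 (plasma cell), Ptprc and Adgre1 (myeloid), Krt19 (epithelial), and Col3a1 and Thy1 (fibroblast) were not among the 16426 genes, so their levels are unknown. The part of the measured markers in the results above was not tested.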

How the data were processed

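Messenger RNA of 4T1-LM3 cells was sequenced from polyA RNA with random hexamer priming at BGI, per the labels' protocols. The authors deposited 1 table of FPKM, 2 decimals per value, with symbols and gene numbers, per the file headers; the build was GRCm38 per the submitters' processing notes, and the aligner, quantifier, annotation and strand setting are each not given in the sources used here. FPKM scales by length and library size, so a shift in abundant genes moves all others. Low values (7441 values up to 0.6 FPKM) lay on average 0.250 steps from a whole number of steps, the step being that gene's lowest value above 0, as an even spread gives, so whole reads were not recovered, depth is unknown and no counting interval is given. Genes with at least 1 FPKM in at least 3 libraries (10804) were tested on log2(FPKM + 1) by limma 3.58.1 in R 4.3.3 with an intensity trend, two-sided, Benjamini-Hochberg adjusted over all tested genes, threshold 0.05, no replicate block. The test was run on simulated data first, with added changes larger than those of Xbp1 and Hyou1, so that run does not bear on changes this small. The 10 genes and all lists were chosen with earlier results of these data known. Named were all 10 genes, up to 6 called genes per list, 8 fixed genes, and the 3 genes most like Xbp1 and Hspa5; Rtcb, Ppp1r15a, Bloc1s1, Pdia6, Syvn1, Krtcap2 and the markers that were not called were added after their values were seen. List symbols were matched by symbol or gene number (4 by number). Sequences and positions are from RefSeq, GRCm38.p6. Alternatives were other pseudocounts, filters, scalings, variance models, a replicate block and leaving out each library.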

Additional observations from a re-analysis of the deposited data

How the results depend on the processing

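Xbp1 stayed higher (log2 fold change 0.22 to 0.26; adjusted p up to 0.0132 by limma) and Hyou1 lower (-0.20 to -0.15; up to 0.0441) in all 16 alternatives. The number of the 10 genes that fell was 2, with Pdia4 added, at a filter of 5 FPKM, on the TPM scale and under quantile normalization (adjusted p = 0.0486, 0.0397 and 0.0344). The count of changed genes was 801, and 394 with no filter on low values and 525 with no intensity trend; without 1 library it ran from 395 to 556, and the counts among the 10 genes stayed at 1 higher and 1 lower. The split was 362 higher and 439 lower, but 434 and 369 under the median of ratios. The sign turned for Herpud1 under the median of ratios (0.01) and quantile normalization (0.01), and without 1 library it ran from -0.04 to 0.04, the highest without control CM replicate 3. For Dnajb9 it ran from -0.17 to 0.01 without 1 library, the highest without Tdo2high CM replicate 2. The cause was not tested. Same-numbered samples of the groups did not deviate together (r of deviations -0.02, -0.03 and 0.02 across genes). No sample was closest to its own number, and all pairs of samples across the groups had r between -0.08 and 0.09. Values this few and small cannot decide whether samples were paired or shared a batch. A fit with the replicate block gave 622 changed genes, 1 higher and 1 lower among the 10. Of 543 values of single genes, 503 kept direction and side of the threshold. Rounded FPKM and 3 libraries per group limit precision.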
